A study of Mus musculus with 6 samples.

Results

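The early course of vemurafenib-treated wounds was followed here by setting the library of day 6 against the library of day 2 of the same arm, which are 2 of the 6 libraries of the study. Vemurafenib is an inhibitor of mutant BRAF kinase that was developed for melanoma; in cells with wild-type BRAF it can activate the MAPK pathway instead, and the study asked whether this could be used on skin wounds. RNA came from skin resected around full-thickness incisional wounds on the shaved back of young adult female C3H mice, which the study's methods give as C3Hf/Kam. In the vemurafenib arm the drug was applied to the wound every other day, as a suspension in DMSO and PBS, and in the control arm the study's methods name DMSO in PBS as the vehicle, while the sample labels say no treatment. Both arms were sampled on days 2, 6 and 14, with 1 library for each arm and day, and the number of mice behind a library is not given in the sources used here. The wounds were closed with clips that were removed after 2 days, no unwounded skin was analysed here, and the labels name no altered gene.

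Skin repair runs through stages that overlap. Neutrophils and monocytes enter first, drawn by chemokines from damaged tissue, and macrophages then clear the debris and release growth factors. Fibroblasts next fill the gap with a matrix of collagen and fibronectin while new vessels grow in and keratinocytes at the edge cover the surface. In haired skin the follicles around a wound can enter their growth phase over the same days, and on the back of a mouse a thin sheet of muscle lies under the dermis and is cut by a full-thickness incision.

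Levels are FPKM, in principle the fragments of a gene divided by the length of its transcript and by the fragments of the library, as the authors deposited them. They were normalized with cuffnorm, and how it scaled the libraries is not given in the sources used here. The part of that scaling in the median ratio of all genes was not tested. A log2 ratio here is the log2 of day 6 over day 2 after 0.1 FPKM had been added to both, so that 1 stands for a 2-fold higher level on day 6 and -1 for a 2-fold lower level. With 1 library a day there is no replicate error, no test was made, and each value describes these libraries. FPKM hold no read numbers, so the depth behind a value is unknown. The vemurafenib library of day 2 had the form of single values while that of day 6 had the form of averages of 2 (0.269% and 52.4% of values above 0 with more than 6 digits), and genes listed at 0 numbered 6088 and 5214. The control libraries of days 2 and 6 had the form of averages too (58.2% and 53%). In bulk tissue, fewer cells of a type and less RNA per cell cannot be told apart. The markers of skin were present, with the epidermal keratins Krt5 (4608 and 1439 FPKM on days 2 and 6 with vemurafenib) and Krt1 (529.6 and 1057) and the dermal collagen Col1a1 (102 and 3026), and muscle was in the samples too, with the muscle actin Acta1 at 9277 and 3518 FPKM. Of the B and plasma cell markers, 8 of which were in the table, none reached a mean of 1 FPKM.

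A gene was kept where its 6 values averaged 1 FPKM or more, which left 13392. With vemurafenib, 1263 of these (9.43%) were higher on day 6 than on day 2 by 2-fold or more, and 897 (6.7%) were lower by as much. These shares are the background against which the counts of the gene lists below are to be read. The difference between the directions widened with size: 540 genes had a 4-fold higher level and 205 a 4-fold lower one, and at 16-fold the numbers were 145 and 39. The median log2 ratio of the 13392 genes was 0.0049. When all libraries were scaled to the same total FPKM this median was 0.24 and the split became 1673 higher against 628 lower. Small differences therefore depend on the scale. Of the 2160 genes past 2-fold, 149 were listed at 0 on day 2 and 22 on day 6, and 72 of the higher and 62 of the lower genes were small RNA or histone genes.

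**Figure D1:**
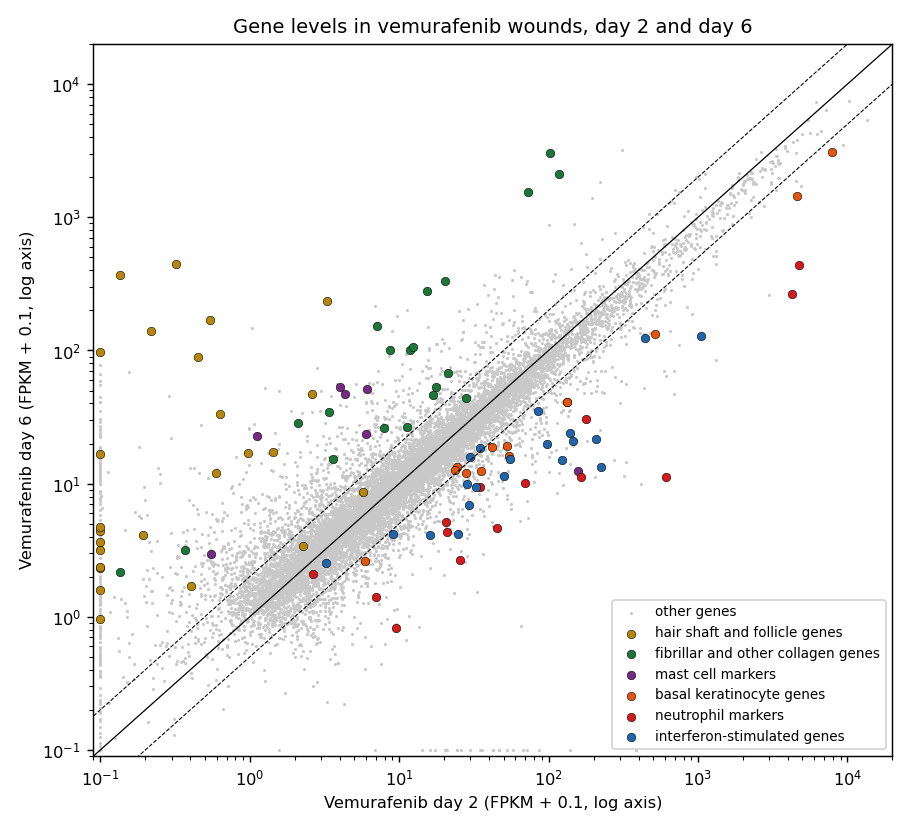
FPKM plus 0.1 of each gene with vemurafenib on day 2 (horizontal log axis) and day 6 (vertical log axis), 1 library each. The solid line marks equal levels and the dashed lines a 2-fold difference. Most hair, collagen and mast cell genes lie above the lines, while most neutrophil, interferon-stimulated and basal keratinocyte genes lie below.

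The genes with the highest ratios were mostly those of the hair follicle, and the lowest included genes of neutrophils and of muscle. Among the 12 highest ratios of genes that averaged 5 FPKM or more and had values above 0 in both libraries were 6 keratins of the growing hair follicle, with Krt25 at 0.0353 FPKM on day 2 and 366 FPKM on day 6, Krt71 at 0.222 and 443 FPKM, and Krt73 at 0.119 and 141 FPKM. Krt25, Krt27 and Krt28 lie beside each other on chromosome 11 of mm9, Krt25 at 99176830 to 99184265 on the minus strand, and Krt71 and Krt73 lie on chromosome 15, Krt71 at 101564381 to 101573540. The other leading genes were the melanocyte antigen gene Mlana (0.189 and 45.1 FPKM), the hair calcium-binding protein gene S100a3 (3.19 and 233), the matrix glycoprotein gene Tnn (0.0806 and 18.6) and the imprinted gene Dlk1, an inhibitor of fat cell formation (0.196 and 21.8). Gm7367 and Rpl26, which completed the 12, were under 0.01 FPKM on day 2 (0.000935 and 0.00283); ribosomal genes like Rpl26 have near-identical copies in the genome, and these values are uncertain. The 12 lowest ratios held the neutrophil genes Retnlg (614 and 11.2 FPKM), S100a9 (4248 and 265) and Lcn2 (164 and 11.1), the stefin gene Stfa2l1 (319 and 11.3) and the granulocyte growth factor gene Csf3 (33.3 and 1.44). Slfn4, a myeloid gene of the Schlafen family (329 and 14.4 FPKM), and Rsad2, the antiviral protein viperin (224 and 13.3 FPKM), are both induced by interferon. The muscle stress genes Ankrd2 (203 and 11.0 FPKM) and Mustn1 (1322 and 84.7 FPKM) were there as well, with the predicted genes Gm4841 (log2 ratio -6.25), Gm5483 (-5.36) and Gm14446 (-3.95). In the control course the log2 ratios of these 12 genes ran from -7.20 (Slfn4) to -3.43 (S100a9), so that they were low on day 6 in both arms.

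Neutrophil genes were lower on day 6 across nearly the whole list. Of 14 markers past the filter, 13 were at least 2-fold lower and none higher, with a median log2 ratio of -3.01 against 0.0049 over all genes. The summed level of the list was 10177 FPKM on day 2 and 797 FPKM on day 6, and most of it was S100a8 and S100a9 on both days. The sum thus follows these 2 genes more than the rest of the list. Their log2 ratios were lower with vemurafenib than in control (differences of -0.83 and -0.57), whereas 10 of the 14 genes had the higher ratio with vemurafenib. Whether S100a8 and S100a9 came from neutrophils alone was not tested. S100a8 and S100a9 encode the subunits of calprotectin, the most abundant protein of the neutrophil cytosol; S100a8 stood at 4738 FPKM on day 2, 438 FPKM on day 6 and 35.7 FPKM on day 14. The control wounds held S100a8 at 3813, 628 and 79.6 FPKM on the same days, so both arms ran downwards from a like start. The receptor genes Fpr2 (69.1 to 10.1 FPKM), which senses formylated bacterial and mitochondrial peptides, and Trem1 (44.7 to 4.51 FPKM), which amplifies inflammation, were lower too. Camp, the cathelicidin gene, was the member that did not reach 2-fold (2.55 and 1.99 FPKM). In the control course 13 of the 14 genes were lower, with a median of -3.61; over all genes of that course 11.8% were at least 2-fold lower and 9.98% higher.

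Chemokines that call neutrophils were lower by less than in the control wounds. All 6 genes of this list past the filter had negative ratios, 3 of them past 2-fold, with a median of -1.42 with vemurafenib and -5.46 in control, where 6 of 6 were past 2-fold. Cxcl1, a ligand of the neutrophil receptor Cxcr2, was at 109 FPKM on day 2 and 61.2 FPKM on day 6 with vemurafenib, and at 109.7 and 2.53 FPKM in control. The arms thus shared the level of day 2 and stood apart on day 6, and on day 14 both were under 1 FPKM (0.186 with vemurafenib and 0.418 in control). Cxcl5, another ligand of this receptor, went from 18.0 to 10.9 FPKM with vemurafenib and from 63.3 to 0.614 FPKM in control, which differed on day 2 as well. Cxcl2 (693 to 47.4 FPKM) and Cxcl3 (131 to 18.5 FPKM) had log2 ratios of -3.87 and -2.81, and the platelet factor gene Pf4, also made by macrophages, was within 2-fold (577 and 536 FPKM). The median of this list was -0.83 without a filter on the mean, since the unexpressed Cxcl15 then counted.

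These genes lie in a cluster on the plus strand of chromosome 5, Cxcl1 at chr5:91320267-91322141 and Cxcl2 at chr5:91332897-91334935 in mm9, and the upstream stretches of 3 of them are printed because the genes, which were all far lower on day 6 in control and differed in their ratios with vemurafenib, share a short element. Each stretch comes from the 250 bases before the start of the gene (RefSeq, GRCm38.p6), is written 5′ to 3′ on the strand of the gene, and carries in capitals the match to the kappaB motif, the DNA element bound by NF-kappaB.
Cxcl1: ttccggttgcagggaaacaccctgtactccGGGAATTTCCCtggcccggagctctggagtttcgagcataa
Cxcl2: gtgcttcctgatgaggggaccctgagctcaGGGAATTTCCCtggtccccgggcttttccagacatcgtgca
Cxcl3: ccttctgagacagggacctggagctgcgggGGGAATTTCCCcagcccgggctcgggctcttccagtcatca
In GRCm38 the stretches lie on the plus strand at chr5:90891144-90891214 (Cxcl1), chr5:90903772-90903842 (Cxcl2) and chr5:90785998-90786068 (Cxcl3). The capitals are the same letters in the 3 genes, hold 2 overlapping matches and end 61, 87 and 63 bases before the start. The motif was found on either strand in 3 of the 5 genes of the list with a promoter in the table, in 549 of 9810 genes past the filter (5.6%) and in 3.9% of 32851 windows. A match describes these letters and says nothing on binding in the wounds.

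Chemokines of monocytes also kept more of their day 2 level than in the control wounds. Of 10 monocyte chemokine genes 4 were at least 2-fold lower and 1 higher with vemurafenib, at a median of -0.63, against 9 lower and a median of -3.23 in control. Ccl2, the main attractant of Ccr2-bearing monocytes, was at 363 and 190.0 FPKM on days 2 and 6 with vemurafenib and at 375 and 15.6 FPKM in control. Ccl3 and Ccl4, the macrophage inflammatory proteins, were lower by log2 ratios of -2.55 and -3.25, and Ccl6 was the gene that was higher (222 and 487 FPKM, against 292 and 129 in control). Among 16 cytokine genes, 8 were at least 2-fold lower and 1 higher with vemurafenib, and 9 lower and 2 higher in control, with Il1b at 691 and 69.7 FPKM and Tnf at 55.9 and 6.32 FPKM, both early products of activated myeloid cells. Il6, which drives the acute-phase response, was within 2-fold with vemurafenib (11.9 and 6.21 FPKM, log2 ratio -0.92) and had a log2 ratio of -4.97 in control (20.7 and 0.563 FPKM). The member that was higher was Il1f6, an epidermal cytokine of the interleukin 36 group, at 3.72 and 7.96 FPKM. The median of the cytokine list was -1.06, and -1.73 over members with a mean of at least 5 FPKM.

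Acute-phase and antimicrobial genes were split. Of 17 genes, 8 were at least 2-fold lower and 3 higher, at a median of -0.76 (-1.26 in control). The lower genes with the lowest ratios, S100a9, Lcn2 and S100a8, are on the neutrophil list too and are no separate evidence. Camp, which was within 2-fold, is also on both lists. Saa3, a serum amyloid gene expressed in inflamed tissue, was higher with vemurafenib, at 471 FPKM on day 2 and 1059 FPKM on day 6, and went the other way in control, from 3211 to 141 FPKM. Lbp, which presents bacterial lipopolysaccharide to Cd14, was at 18.9 and 99.7 FPKM with vemurafenib and at 68.1 and 83.7 in control. On day 2 both genes were higher in the control wounds and on day 6 both were higher with vemurafenib. Of the prostaglandin and leukotriene enzymes, Ptgs2, the inducible cyclooxygenase, was lower (21.7 and 3.14 FPKM; 24.8 and 1.16 in control). Ptgds, which makes prostaglandin D, was the member with the highest ratio, at 0.896 and 26.0 FPKM, and it was higher in control too (0.938 and 41.6 FPKM) and higher still on day 14 with vemurafenib (212 FPKM). Ptgis, the prostacyclin synthase gene, was higher with vemurafenib (14.2 and 41.2 FPKM) and not in control (29.6 and 17.0 FPKM).

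Genes that type I interferon induces were lower on day 6 without exception in sign. All 20 genes had negative ratios, 17 of them were at least 2-fold lower, and the median was -2.02. In the control course 20 of 20 were past 2-fold, with a median of -3.77. Isg15, a ubiquitin-like protein that interferon induces, was at 1046 FPKM on day 2, 129 FPKM on day 6 and 20.1 FPKM on day 14, against 968, 49.5 and 14.4 FPKM in control. Rsad2 had the lowest ratio of the list (-4.06). Ifit1 and Ifit3, which encode related antiviral proteins, were at 124 and 14.9 FPKM and at 208 and 21.6 FPKM, and Irf7, the factor that amplifies the interferon response, was at 440.1 and 123 FPKM. The summed level of the list was 2820.4 FPKM on day 2 in the vemurafenib wounds and 2656 in control, and 502 and 154 on day 6.

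Stretches upstream of 5 of these genes are shown because an interferon-stimulated response element is the sequence through which such genes are known to be induced. The capitals mark matches to its core, GAAANNGAAA in which N is any base, or to the same letters on the other strand. Overlapping matches run together.
Ifit1: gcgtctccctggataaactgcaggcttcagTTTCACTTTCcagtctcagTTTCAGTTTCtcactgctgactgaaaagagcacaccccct
Ifit3: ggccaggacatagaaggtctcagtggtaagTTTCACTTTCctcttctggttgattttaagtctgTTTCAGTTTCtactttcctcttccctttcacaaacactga
Isg15: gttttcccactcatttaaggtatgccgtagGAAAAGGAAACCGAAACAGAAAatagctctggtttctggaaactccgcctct
Rsad2: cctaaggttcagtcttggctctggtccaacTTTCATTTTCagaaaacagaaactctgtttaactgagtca
Cxcl10: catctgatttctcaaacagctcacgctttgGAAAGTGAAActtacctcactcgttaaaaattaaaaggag
In GRCm38 the stretches lie at chr19:34640755-34640843 (Ifit1, plus strand), chr19:34583343-34583446 (Ifit3, plus strand), chr4:156200845-156200926 (Isg15, minus strand), chr12:26456533-26456602 (Rsad2, minus strand) and chr5:92349063-92349132 (Cxcl10, minus strand). Isg15 held 3 overlapping matches that ended 57 to 69 bases before its start, Ifit1 and Ifit3 held 2 each, and Rsad2 and Cxcl10 held 1 each. Of the 20 genes of the list, 15 had a promoter in the table and 8 of these held the core within 250 bases, against 314 of 9810 genes past the filter (3.2%) and 2.98% of 32851 windows. The interferon genes are known for this element, and the match bears on no factor in these wounds.

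Macrophage genes went in both directions with vemurafenib. Of 27 macrophage and monocyte markers, 13 were at least 2-fold higher and 6 lower, with a median of 0.95, while in control 1 was higher and 14 lower, with a median of -1.03. The complement genes C1qa, C1qb and C1qc, which resident and tissue macrophages express, were at 71.0, 71.3 and 109.7 FPKM on day 2 and at 313, 333 and 372 FPKM on day 6. In control these genes stood at 243, 231 and 369 FPKM on day 2 already, and at 264, 223 and 264 FPKM on day 6, so that the arms differed more on day 2 than on day 6. Lyz2, the lysozyme of myeloid cells, was at 196 and 1405 FPKM with vemurafenib and at 223 and 491 FPKM in control; Lyz1 is close to it in sequence and may share reads. Marco, a scavenger receptor of phagocytes, was at 0.0718 and 5.97 FPKM with vemurafenib and at 0.293 and 0.577 FPKM in control, and Gpnmb, a lysosomal glycoprotein of macrophages and pigment cells, at 26.6 and 138 against 28.0 and 32.7 FPKM. On the other side, the genes of incoming monocytes were lower: Ly6c2, which has a near-identical neighbour and is uncertain, at 434 and 52.1 FPKM, Ccr2 at 22.6 and 10.4 FPKM, and Cd14, the lipopolysaccharide co-receptor, at 910.1 and 187 FPKM. The summed level of the list was 4936 and 6023 FPKM on days 2 and 6 with vemurafenib and 6583 and 2547 in control.

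Genes linked to alternative activation of macrophages were higher in 7 of 11 cases and lower in 2, at a median of 1.30 (-0.03 in control). The lectin genes Mgl2 (0.876 and 5.21 FPKM), Clec10a (24.4 and 69.8) and Mrc1, the mannose receptor (13.6 and 33.7), and the folate receptor gene Folr2 (48.1 and 121) were higher. Mgl2 had nearly the same log2 ratio in control (2.44 with vemurafenib and 2.47). Chil3 had the lowest ratio of the list and was lower in both arms (log2 ratios -2.67 with vemurafenib and -4.22 in control). Retnla, a resistin-like gene that interleukin 4 induces, was lower (22.9 and 7.92 FPKM) where in control it was higher (83.1 and 189 FPKM), and on day 14 it stood at 295 and 155 FPKM. Arg1, which breaks down arginine, was within 2-fold in both arms (log2 ratios -0.88 and -0.63).

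Most mast cell genes were higher on day 6. Of 7 mast cell markers, 6 were at least 2-fold higher, at a list median of 3.06 (1.71 in control). The carboxypeptidase gene Cpa3 was at 1.02 and 22.7 FPKM and the mast cell proteases Mcpt4, Cma1 and Tpsb2 at 3.94, 4.23 and 6.02 FPKM on day 2 and at 53.4, 46.9 and 51.0 FPKM on day 6. On day 6 the control values were close to these, at 23.0, 69.4, 53.5 and 60.2 FPKM, whereas on day 2 they were higher, at 2.71, 15.2, 16.3 and 28.7 FPKM. Hdc, the enzyme that makes histamine and that other myeloid cells express too, ran against the list (157 and 12.3 FPKM; 125 and 4.86 in control). Of 11 dendritic and Langerhans cell genes, 6 were at least 2-fold higher and none lower. The class II genes H2-Aa (125 and 308 FPKM) and Cd74, the invariant chain (279 and 765 FPKM), and the integrin gene Itgax (4.30 and 11.4 FPKM) were among them, with Cd74 at 770.4 and 843 FPKM in control, where the level of day 2 was the higher of the arms. T and NK cell genes were low throughout: of 12 past the filter 1 was higher (Cd4, 1.24 and 3.43 FPKM) and 2 were lower, both granzymes of cytotoxic cells (Gzma, 9.89 and 3.51 FPKM, and Gzmb, 7.27 and 2.22).

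**Figure D2:**
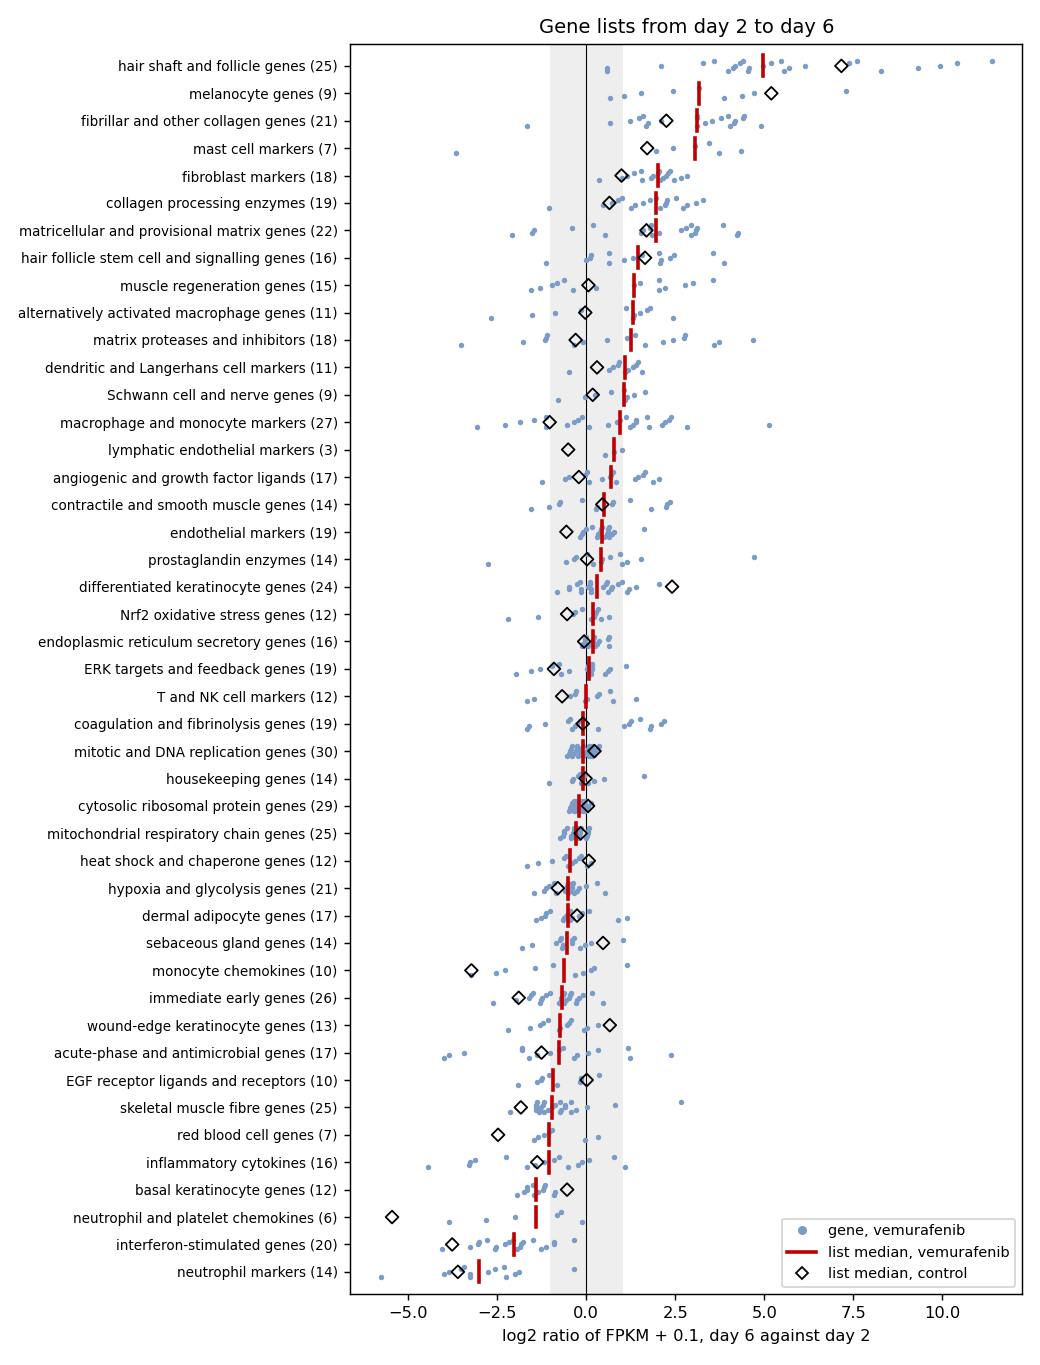
Log2 ratio of day 6 over day 2 (horizontal axis) for each list with 3 or more genes past the filter (vertical axis, number of genes in brackets). Points are genes in vemurafenib wounds, the bar is their median, and the diamond is the median of the same genes in control wounds, with 1 library a day in each arm. The grey band marks differences under 2-fold. Medians run from -3.01 for neutrophil markers to 4.98 for hair genes with vemurafenib.

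Nearly all collagen genes were higher on day 6. Of 21 genes, 19 were at least 2-fold higher, at a median of 3.11, and their summed level was 611 FPKM on day 2 and 8138 FPKM on day 6. Col1a1 and Col3a1 encode the main fibrils of scar and granulation tissue: Col1a1 (chromosome 11, 94797538 to 94814356 on the plus strand of mm9) was at 102, 3026 and 819.7 FPKM on days 2, 6 and 14 with vemurafenib and at 173, 2169 and 1026 FPKM in control. Col3a1 was at 72.8, 1535 and 542 FPKM with vemurafenib and at 135, 1012 and 1208 FPKM in control. Day 6 was thus the highest of the 3 days for both fibrils with vemurafenib, and in control for Col1a1 but not Col3a1. The fibril-nucleating Col5a1 (log2 ratio 4.43), the microfibril genes Col6a1 and Col6a2 (4.17 and 4.04) and the fibril-associated Col12a1 and Col14a1 (3.35 and 3.78) had ratios near those of the main fibrils, and the basement membrane genes Col4a1 and Col4a2 had smaller ones (1.68 and 1.47). Col18a1 was within 2-fold (0.66). Col17a1, the transmembrane collagen that holds basal keratinocytes to their basement membrane, was the gene that was lower (132 and 41.0 FPKM). In control 16 of 21 were higher, at a median of 2.25 and with Col17a1 within 2-fold (-0.43).

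The enzymes that modify and cross-link collagen were mostly higher with vemurafenib and mostly within 2-fold in control. Of 19 genes, 15 were at least 2-fold higher and 1 lower with vemurafenib, at a median of 1.97, while in control 6 were higher, at a median of 0.65. Loxl2, which cross-links collagen, was at 11.0 and 94.2 FPKM, and Adamts2, which cuts the propeptide of procollagen, at 3.91 and 38.5 FPKM. P4ha3, a prolyl hydroxylase subunit (1.49 and 11.3 FPKM), Pcolce, the enhancer of procollagen cleavage (43.0 and 287 FPKM), and Plod2, a lysyl hydroxylase (3.68 and 18.1 FPKM), were higher as well. Lox itself was at 12.2 and 37.3 FPKM with vemurafenib and at 20.5 and 21.0 FPKM in control, higher in the first course and level in the second. The collagen chaperone gene Serpinh1 was at 165 and 646 FPKM. Leprel1, a prolyl 3-hydroxylase, was the member that was lower (2.75 and 1.27 FPKM).

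Matricellular genes, whose products shape the matrix and how cells hold to it, were at least 2-fold higher in 16 of 22 cases and lower in 3, at a median of 1.95 (1.69 in control). Fn1, the fibronectin of the provisional matrix, was at 9.58 and 182 FPKM, and Sparc, a collagen-binding protein, at 219 and 1829.6 FPKM. The small proteoglycan genes Bgn (101 and 871 FPKM), Lum (17.6 and 112) and Fmod (0.294 and 7.39) were higher too. The members that were lower were Thbs1 (99.1 and 23.2 FPKM), released by platelets and early macrophages, Spp1, the osteopontin gene (409 and 147 FPKM), and the hyaluronan synthase Has3 (5.72 and 1.92 FPKM). Spp1 was far lower on day 6 in control (302 and 20.5 FPKM).

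Proteases of the matrix were split. Among 18 genes 10 were at least 2-fold higher and 5 lower, at a median of 1.25 against -0.30 in control. Mmp12, the elastase of macrophages, was at 2.74 FPKM on day 2, 73.3 FPKM on day 6 and 13.04 FPKM on day 14 with vemurafenib, and at 1.72, 7.74 and 21.2 FPKM in control. The vemurafenib wounds peaked on day 6 and the control wounds were highest on day 14. Mmp19 was at 5.88 and 40.7 FPKM with vemurafenib and at 10.9 and 7.99 FPKM in control. The stromal proteases Mmp2 (33.3 and 222 FPKM), Mmp14 (65.4 and 357 FPKM) and Mmp11 (2.52 and 34.4 FPKM) were higher, and Mmp11 had nearly the same values in control (3.02 and 34.0 FPKM). The neutrophil collagenase Mmp8 was lower (9.48 and 0.728 FPKM), as were Mmp13 (40.6 and 11.7 FPKM) and Adam8, a protease of leukocytes (129.8 and 57.8 FPKM). The inhibitor Timp1 was within 2-fold (267 and 248 FPKM) with vemurafenib and lower in control (453 and 124 FPKM).

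Fibroblast markers were higher in 17 of 18 cases by at least 2-fold and lower in none, at a median of 2.02 (0.99 in control, with 9 higher and 1 lower). The member under 2-fold was S100a4, which leukocytes express too (858 and 1109 FPKM). Pdgfra, the receptor that marks fibroblasts, was at 5.32 and 27.4 FPKM with vemurafenib and at 17.1 and 17.3 FPKM in control, and the matrix gene Mfap5 at 28.9 and 206 against 40.3 and 128 FPKM. Their summed level was 1969 and 4255 FPKM with vemurafenib and 2679.7 and 2722 FPKM in control. Contractile genes held muscle and myofibroblast members together, with 5 higher and 2 lower of 14. Acta2, the actin of myofibroblasts and smooth muscle, was at 21.6 and 104 FPKM, and Tagln, which binds it, at 18.7 and 66.7 FPKM, whereas Des, the muscle filament desmin, was at 1323 and 447 FPKM. The median of that list was 0.51, and 1.23 over members with a mean of at least 5 FPKM.

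Vessel genes lay mostly within 2-fold. Of 19 endothelial markers, 15 had positive ratios with vemurafenib, at a median of 0.43, and 1 was past 2-fold, which was Apln, a ligand that sprouting endothelial tip cells release (2.29 and 7.26 FPKM). In control the median was -0.56, 3 were at least 2-fold lower, and Apln was at 4.20 and 3.23 FPKM. Pecam1, the junction protein of all endothelium, was at 27.6, 34.7 and 16.3 FPKM with vemurafenib on days 2, 6 and 14 and at 41.6, 25.6 and 13.8 FPKM in control. With vemurafenib it was thus highest on day 6 and in control on day 2. Among 17 growth factor genes 6 were at least 2-fold higher and 1 lower. Those higher included Igf1 (2.99 and 12.6 FPKM), Vegfc, which acts on lymphatic endothelium (1.07 and 4.20), Pdgfc (2.86 and 8.86) and the transforming growth factors Tgfb2 (0.983 and 2.84) and Tgfb3 (5.29 and 16.9). Vegfa, the main angiogenic factor, was within 2-fold (24.4 and 16.2 FPKM), and Inhba, an activin subunit of early wounds, was lower (11.2 and 4.66 FPKM).

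Genes of coagulation and fibrinolysis showed no common direction, with 8 at least 2-fold higher and 3 lower of 19 and a median of -0.09 that was 0.14 with all libraries scaled to the same total. Plat, the tissue plasminogen activator (8.97 and 40.8 FPKM), the thrombin receptor gene F2r (3.30 and 14.4 FPKM) and F13a1, whose product cross-links fibrin (8.52 and 30.3 FPKM), were higher. Plaur, the urokinase receptor (225 and 70.5 FPKM), and Serpinb2, a urokinase inhibitor (60.2 and 19.5 FPKM), were lower. F7, the factor that starts clotting with tissue factor, was higher with vemurafenib (5.64 and 11.8 FPKM) and lower in control (6.44 and 1.70 FPKM).

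Immediate early genes, which growth factors and stress switch on within minutes and in part through ERK, were past 2-fold lower in fewer cases than in control. Of 26 genes 10 were at least 2-fold lower and none higher with vemurafenib, at a median of -0.68, against 19 lower and a median of -1.90 in control. Fos, a subunit of the AP-1 factor, was at 331, 113 and 6.25 FPKM on days 2, 6 and 14 with vemurafenib and at 241, 17.4 and 5.19 FPKM in control. Egr1, a zinc finger factor downstream of ERK, was at 243 and 149 FPKM with vemurafenib and at 158 and 34.5 FPKM in control, and the orphan receptor Nr4a1 at 242 and 178 against 136 and 19.7 FPKM. Cyr61, a target of YAP and of serum response factor, was the member with the highest ratio (104 and 144 FPKM, within 2-fold, against 165 and 35.8 in control). Levels of these genes also respond to how tissue is handled, which was not measured.

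Target and feedback genes of the ERK pathway, some of which are read as a gauge of its activity, were mostly within 2-fold with vemurafenib. Their summed level was lower on day 6, at 1119 and 408 FPKM on days 2 and 6 against 1046 and 280 in control. Most of the sum with vemurafenib was Ier3 (839 and 213 FPKM). Of 19 genes 1 was at least 2-fold higher and 3 were lower (Phlda1, Fosl1 and Ier3, the last 2 of which are on the immediate early list too), at a median of 0.07, and in control 1 was higher and 7 lower, at a median of -0.91. Dusp6, the ERK phosphatase, was at 53.8 and 32.9 FPKM with vemurafenib and at 56.9 and 24.5 FPKM in control. Spry4, an inhibitor of receptor signalling that ERK induces, was the member that was higher (1.30 and 2.95 FPKM, against 2.07 and 1.88 in control), and its relatives Spry1 and Spry2 were level (0.16 and 0.03). Etv4 and Etv5, transcription factors of the same pathway, had log2 ratios of 0.66 and 0.60. The ligands and receptors of the EGF receptor family were lower in 5 of 10 cases and higher in none with vemurafenib, and lower in 4 and higher in none in control. The ligand genes Epgn (35.1 and 9.26 FPKM), Hbegf (50.9 and 21.0), Areg (50.3 and 21.2), Btc (1.82 and 0.636) and Nrg1 (2.96 and 1.38) were lower, and Egfr itself was within 2-fold (5.53 and 7.10 FPKM). In control Epgn, Hbegf and Areg were past 2-fold lower too (log2 ratios -1.49, -1.19 and -1.41), and Btc had a positive ratio (0.923 and 1.54 FPKM).

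Genes of the basal epidermis were lower on day 6 with vemurafenib and nearly level in control. Of 12 basal keratinocyte genes, 10 were at least 2-fold lower on day 6 with vemurafenib and none in control, with medians of -1.41 and -0.54. Krt14, the keratin of the basal layer, was at 7896, 3090.0 and 1692 FPKM on days 2, 6 and 14 with vemurafenib and at 7741, 8285 and 1332 FPKM in control. The arms had like levels on day 2 and differed on day 6. Krt15, a keratin of basal cells and of the hair follicle bulge (517 and 134 FPKM), Itgb4, the integrin of hemidesmosomes (35.2 and 12.3 FPKM), Lamb3, a chain of the epidermal laminin (53.9 and 16.1 FPKM), and Trp63, the factor that maintains the basal state (41.6 and 18.6 FPKM), were lower. The summed level of the list was 13418 and 4810.0 FPKM with vemurafenib and 12976 and 12044 FPKM in control.

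Keratinocyte genes of the wound edge were at least 2-fold lower in 5 of 13 cases and higher in none with vemurafenib, and higher in 6 and lower in 1 in control, with medians of -0.74 and 0.66. Krt6a, a keratin that injury induces, was at 1255 and 508 FPKM with vemurafenib and at 1527 and 1631 FPKM in control, and its partner Krt16 at 1709 and 1021 against 2373 and 3596 FPKM. The genes Krt6b and Krt6a are close in sequence and may share reads. Sprr1b, a precursor of the cornified envelope, was at 661 and 285 FPKM with vemurafenib and at 578 and 914 in control. On day 14 Krt16 was at 32.8 FPKM with vemurafenib and 49.5 FPKM in control and Krt6a at 232 and 208 FPKM, whereas Krt17, which hair follicles express too, was at its highest of the 3 days in both arms (2583 and 1594 FPKM).

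Genes of differentiated keratinocytes were higher in the control course in 22 of 24 cases and in the vemurafenib course in 4, with medians of 2.41 and 0.30. Krt1 and Krt10, the keratins of the suprabasal layers, were at 529.6 and 702 FPKM on day 2 and at 1057 and 1615 FPKM on day 6 with vemurafenib, and at 319 and 308 FPKM and 3130.2 and 3910.4 FPKM in control. On day 2 the vemurafenib wounds had the higher level of both and on day 6 the control wounds. Casp14, which helps to mature the cornified layer, was at 24.8 and 65.7 FPKM with vemurafenib and at 15.5 and 185 in control. Lor, the main protein of the cornified envelope, was within 2-fold with vemurafenib (691 and 1284 FPKM) and higher in control (757 and 4251 FPKM), as was Krtdap (3555 and 2552 against 2824 and 6807 FPKM). The sums were 7621 and 9090.2 FPKM with vemurafenib and 6037 and 25861 FPKM in control. Sebaceous genes were lower in 2 of 14 cases and higher in 1, among them the fatty acid elongase Elovl3 (69.4 and 23.9 FPKM). Whether the skin pieces held the same share of epidermis was not measured, and its part in these ratios was not tested.

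Hair follicle genes went from near 0 to high levels. Of 25 hair shaft and follicle genes, 23 were at least 2-fold higher on day 6 and none lower with vemurafenib, and 25 were higher in control. Their summed level was 18.3 FPKM on day 2, 1721 FPKM on day 6 and 29887 FPKM on day 14 with vemurafenib, and 13.2, 4521 and 49067 FPKM in control. The keratins of the inner root sheath led on day 6: Krt71 was at 443 FPKM with vemurafenib and 1165 FPKM in control, and Krt25 at 366 and 821 FPKM. Krt35, an early keratin of the shaft, was listed at 0 on day 2 and was at 97.9 FPKM on day 6 with vemurafenib, and at 197 FPKM on day 6 in control. Keratin and keratin-associated genes of the mature shaft were still low on day 6, Krt34 at 1.49 FPKM and Krtap8-1 at 16.6 FPKM, and reached 628 and 5853 FPKM on day 14. The list median of 4.98 (7.17 in control) rests on day 2 values of which 12 were under 0.1 FPKM, 10 of them listed at 0, and was 2.96 with 1 FPKM added in place of 0.1 and 7.80 with 0.01.

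Genes of follicle stem cells and follicle signalling were mostly higher as well. Of 16 such genes 10 were at least 2-fold higher and 1 lower with vemurafenib, at a median of 1.44. In control 14 were higher and none lower, at a median of 1.65. Shh, which the growing follicle releases, was at 0.345 and 6.39 FPKM, and its target Gli1 was at 1.25 FPKM on day 2 and at 5.72 FPKM on day 6. Lef1, which acts for Wnt signals in the hair matrix, was at 0.806 and 10.7 FPKM, with 0.459 and 14.6 in control. Sostdc1, an inhibitor of Wnt and BMP, ran against the list with vemurafenib (22.7 and 10.2 FPKM) and with it in control (7.23 and 19.2 FPKM). Pigment genes followed the hair genes: 8 of 9 were at least 2-fold higher, at a median of 3.17 (5.20 in control; 1.42 with 1 FPKM added and 4.13 over members with a mean of at least 5 FPKM). Dct, a melanin enzyme, was at 3.77 and 56.1 FPKM and Pmel, the fibril protein of melanosomes, at 0.966 and 27.9 FPKM.

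Skeletal muscle genes were abundant in both libraries, and about as many were lower on day 6 as were within 2-fold. Of 25 fibre genes 12 were at least 2-fold lower and 1 was higher, at a median of -0.97, and in control 20 were lower, at a median of -1.84. The summed level of the list was 32594 and 16350.4 FPKM on days 2 and 6 with vemurafenib and 31822 and 7504 FPKM in control. The muscle creatine kinase gene Ckm stood at 2269.9 and 1003 FPKM with vemurafenib and at 2191 and 365 FPKM in control. The member that was higher was Tnni1, the troponin of slow and immature fibres (19.1 and 122 FPKM). Genes of regenerating muscle were higher in 8 of 15 cases and lower in 2, at a median of 1.34 that was 0.28 over members with a mean of at least 5 FPKM. The embryonic and perinatal myosins Myh3 and Myh8 (chromosome 11, Myh8 at 67090626 to 67122136 of mm9) were at 1.54 and 2.86 FPKM on day 2 and at 11.1 and 34.9 FPKM on day 6, and on day 14 at 0.446 and 3.25 FPKM. In control they were at 1.13 and 3.92 FPKM on day 2 and at 5.10 and 11.0 FPKM on day 6. Actc1, the actin of immature fibres, was at 25.1 and 199 FPKM with vemurafenib and at 20.3 and 39.0 FPKM in control. Tmem8c, which fuses myoblasts, was at 9.48 and 39.3 FPKM, whereas the regulators Myod1 (-0.63) and Myog (-0.97) were within 2-fold. How much muscle each piece of skin held was not measured, and its part in these values was not tested.

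Of 17 adipocyte genes 5 were lower, among them Car3 (805 and 302 FPKM) and the complement gene Cfd (534 and 242), and Lpl, the lipoprotein lipase, was higher (59.4 and 130.4 FPKM). Of 9 Schwann cell and nerve genes 5 were higher, led by Pmp22, a myelin protein that fibroblasts express too (36.8 and 115 FPKM), and the list median of 1.06 became -0.05 over members with a mean of at least 5 FPKM. Globin genes of red blood cells were lower, with Hbb-b1 at 785 and 345 FPKM with vemurafenib and at 1513 and 272 FPKM in control; the globin genes are near-identical pairs and each value is uncertain.

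Genes of dividing cells were within 2-fold over these days. None of 30 mitotic and DNA replication genes was 2-fold apart in either arm, and their ratios ran from -0.54 to 0.35 with vemurafenib. The proliferation marker Mki67 was at 8.11 and 8.98 FPKM with vemurafenib and at 6.04 and 10.9 FPKM in control, and Top2a, the topoisomerase of dividing cells, at 19.1 and 21.3 against 14.1 and 24.5 FPKM. The median of the list was -0.09 with vemurafenib and 0.23 in control, the first of which was 0.15 with all libraries scaled to the same total. Of the 30 genes, 3 had a higher ratio with vemurafenib than in control, against 54.5% of all genes. Above the control library were 23 of them on day 2 and 11 on day 6, against 49.8% and 54.5% of all genes. The 29 ribosomal protein genes of the list, which does not hold the uncertain Rpl26 and Rps27 (median -0.20, and 0.04 scaled to the same total) and the 25 respiratory chain genes (median -0.29) were likewise within 2-fold with vemurafenib, and of 14 housekeeping genes the lysosomal enzyme gene Gusb was higher (21.2 and 66.1 FPKM). Of 21 genes of hypoxia and glycolysis 4 were lower, the glucose transporter Slc2a1 (162 and 58.7 FPKM), Hk2 (40.9 and 17.9), Aldoa (3303 and 1593) and the lactate carrier Slc16a3 (141 and 64.4). Heat shock genes were lower in 2 of 12 cases, the near-identical pair Hspa1a (24.2 and 9.34 FPKM) and Hspa1b (66.4 and 20.8), whereas secretory chaperones of the endoplasmic reticulum were all within 2-fold, with Hsp90b1 highest (0.64). Of 12 Nrf2 targets, the cystine carrier Slc7a11 (5.66 and 1.16 FPKM) and the quinone reductase Nqo1 (11.4 and 4.38 FPKM) were lower, and Hmox1, the heme oxygenase, was within 2-fold (291 and 363 FPKM) with vemurafenib and lower in control (415 and 176 FPKM).

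The vemurafenib and control courses share no library, so they can be set side by side over the same 13392 genes. Their log2 ratios correlated at r = 0.547 across genes, which share the table and its filter and are not independent replicates. In both courses 664 genes (4.96%) were past 2-fold upwards and 597 (4.46%) downwards. The shared higher genes were 52.6% of those higher with vemurafenib and 49.7% of those higher in control, and the shared lower genes were 66.6% and 37.9% of those lower in each. The control course held more lower genes, 1577 against 897. Opposite courses were few, with 35 genes (0.261%) higher with vemurafenib and lower in control and 23 (0.172%) the reverse, and without small RNA and histone genes 20 and 13. No difference between the courses was tested, since it would need replicate libraries.

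The courses crossed for several lists, in that the arm with the lower level on day 2 had the higher one on day 6. Over all genes the vemurafenib library was above the control library for 49.8% on day 2 and for 54.5% on day 6, and these shares are the background here. Of 19 endothelial genes 0 were above control on day 2 and 19 on day 6, of 18 fibroblast genes 1 and 15, of 21 collagen genes 3 and 16, and of 27 macrophage genes 2 and 26. Keratinocyte genes crossed the other way: of 24 genes of differentiated cells 20 were above control on day 2 and 0 on day 6, and of 12 basal genes 10 and 0. Hair shaft and follicle genes were above control in 15 of 25 cases on day 2 and in 0 on day 6. Of these, 10 were listed at 0 on day 2 with vemurafenib. Other lists were mostly above control on both days and did not cross: interferon-stimulated genes in 13 and 20 of 20 cases, and skeletal muscle genes in 17 and 24 of 25. Each arm and day is 1 library, and the part that the make-up of each skin piece had in these counts was not tested. Among the libraries compared here, only that of vemurafenib day 2 had the form of single values, and the others had the form of averages. The part of that difference in these counts was not tested either.

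**Figure D3:**
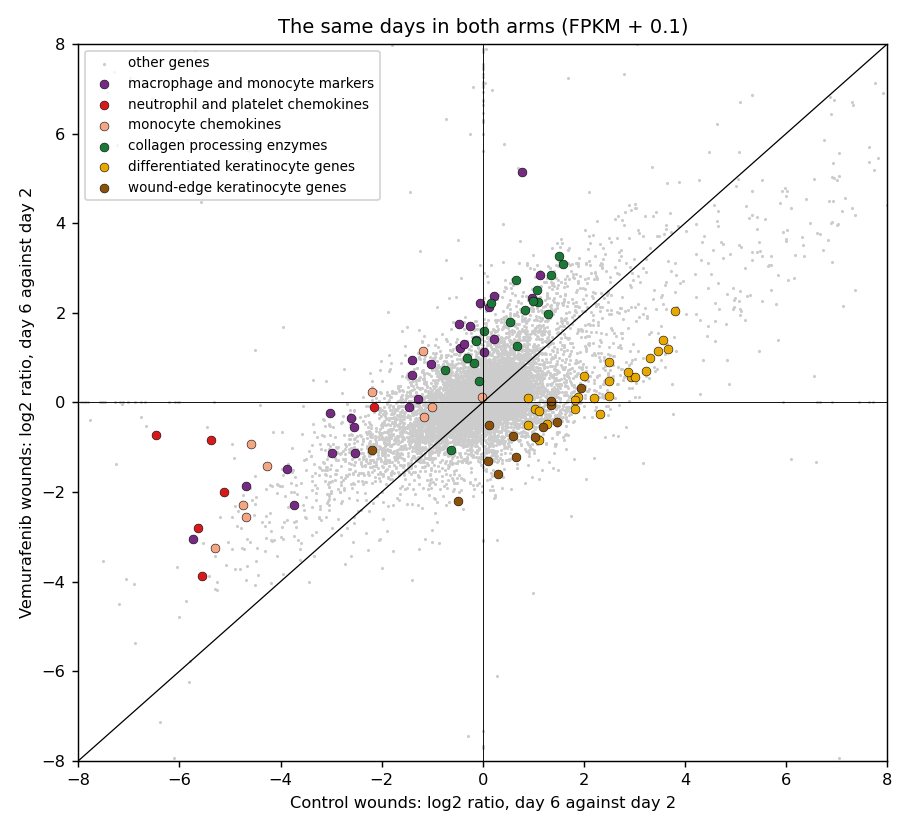
Log2 ratio of day 6 over day 2 in control wounds (horizontal axis) and vemurafenib wounds (vertical axis) for each gene, 1 library a day in each arm. The diagonal marks equal ratios, and 60 genes fall outside the axes. All 27 macrophage genes lie above the diagonal and all 24 genes of differentiated keratinocytes below it.

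The genes whose 2 ratios differed most, by the rule used for naming genes, were of few kinds. On the positive side were Cxcl5, Saa3 and Cxcl1, already given, and 5 ribosomal or pseudogene entries, Gm7367, Rpl26, Rps27, Atp6v0c-ps2 and Pisd-ps3. Rps27 was at 309, 3206 and 21.2 FPKM with vemurafenib and at 964, 405 and 662 FPKM in control; it has near-identical copies, and such swings make its values uncertain. On the negative side were late envelope genes of the cluster on chromosome 3, Lce3a (12.1 and 2.00 FPKM with vemurafenib, 9.83 and 33.4 in control) and Lce3e (7.99 and 3.30 against 7.48 and 34.5), which are alike in sequence. With them were the epidermal cytokine Il1f10 (2.34 and 0.644 against 0.999 and 4.46), Tchhl1 (0.0502 and 0.9015 against 0.0104 and 7.12) and Otop2 (0.247 and 0.3605 against 0.0470 and 1.88). The hair genes were Krtap17-1 (0.407 and 5.99 against 0.0440 and 39.1) and Krtap3-3 (0.227 and 2.75 against 0.0701 and 20.4). In control Tchhl1, Otop2, Krtap17-1 and Krtap3-3 were under the added 0.1 FPKM on day 2, so their differences depend on it. Tchhl1, Otop2 and Krtap3-3 reached a mean of 5 FPKM only through their day 14 values. The last gene was Lars2, the mitochondrial leucyl-tRNA synthetase (196 and 165 against 306 and 4179.8). In control Lars2 was back at 181.5 FPKM on day 14, and such a swing makes its values uncertain too.

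What was high on day 6 can be read on against day 14, keeping in mind that both ratios use the day 6 library. Over all genes 7.46% were at least 2-fold higher and 14.6% lower on day 14 than on day 6 with vemurafenib. Of the collagen genes 12 of 21 were at least 2-fold lower on day 14, of the collagen enzymes 17 of 19, of the macrophage markers 25 of 27 and of the mast cell markers 6 of 7. Muscle regeneration genes were lower in 15 of 15 cases. The inflammatory genes that were already lower on day 6 went lower again, with all 20 interferon-stimulated genes and 13 of 14 neutrophil genes at least 2-fold below their day 6 level. Hair genes ran the other way, with all 25 at least 2-fold higher on day 14 than on day 6.

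**Figure D4:**
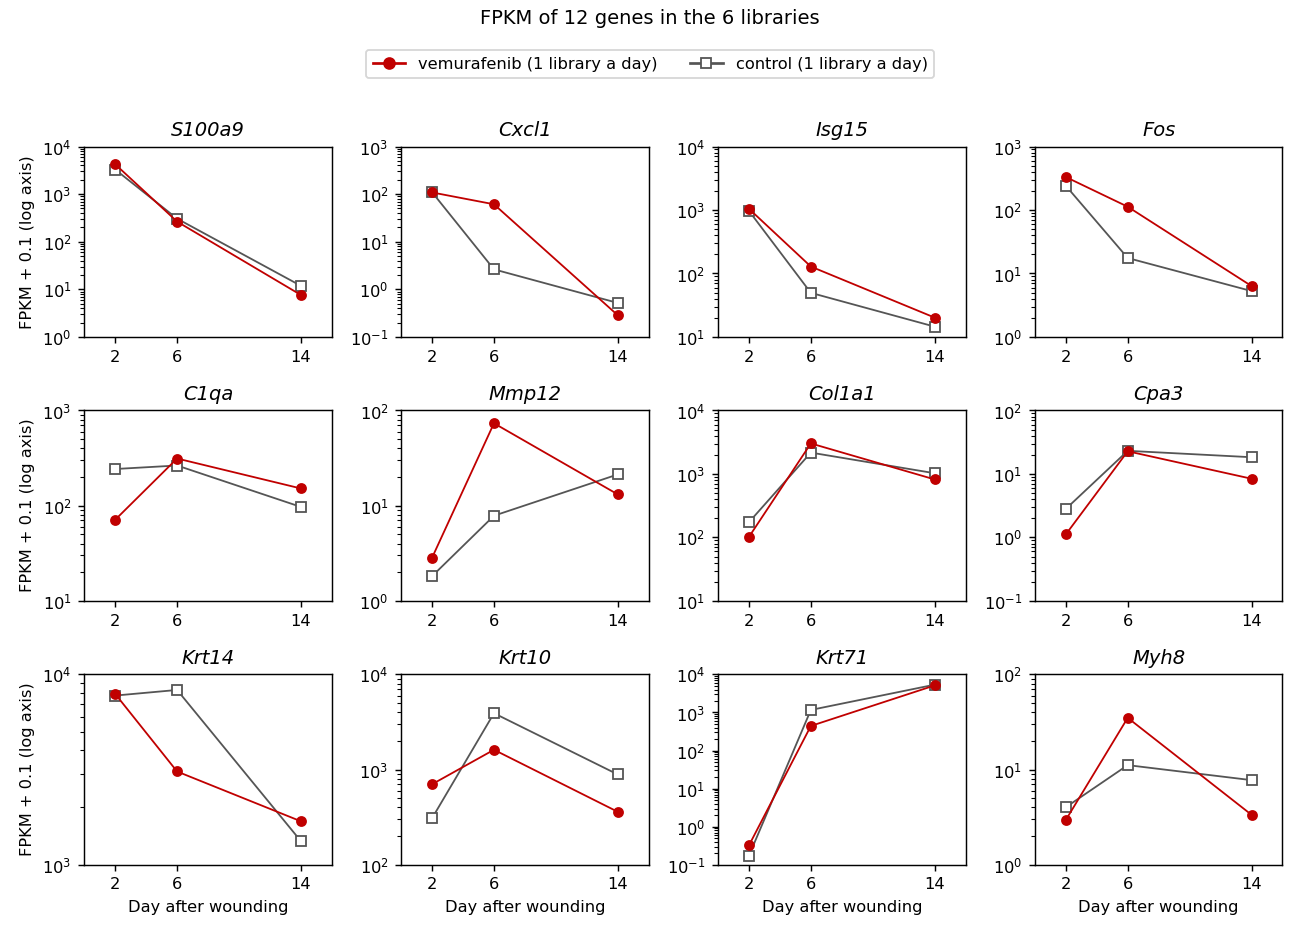
FPKM plus 0.1 (vertical log axis, scaled to each gene) of 12 genes on days 2, 6 and 14 (horizontal axis) in vemurafenib wounds (filled circles) and control wounds (open squares), 1 library a day with no replicate error. S100a9, Isg15 and Fos run downwards in both arms, Cxcl1 and Krt14 have like levels on day 2 and differ on day 6, and Col1a1, Cpa3 and Myh8 are highest on day 6.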

How the data were processed

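The authors extracted RNA from resected wound skin, sequenced it on an Illumina HiSeq2000, aligned the reads to mm9 with TopHat and made gene FPKM with cuffquant (corrections for fragment bias and multiply mapped reads) and cuffnorm; the FPKM table was deposited with 1 column per arm and day. Tool versions and the annotation are not given in the sources used here. The study's methods describe paired-end reads and the sample labels single-end reads. Whether the columns that look like averages of 2 values pool separate libraries is not stated.

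Of 23940 rows, 27 whose gene name had become a date were left out. Genes whose 6 values averaged 1 FPKM or more were kept (13392), 0.1 FPKM was added, and log2 ratios were taken (Python 3.11.15, pandas 2.3.3, numpy 2.4.6). Past 2-fold was the only call, and FPKM give no depth, interval or p-value with 1 library a group. Named genes were the 12 highest and 12 lowest ratios with a mean of at least 5 FPKM and no small RNA or histone gene, the 8 largest differences between courses each way, and in each of 46 lists the 4 largest ratios and the 4 highest levels; other list members were named after their values were seen. A few list members are not reported here. The members and lists were chosen with earlier results of these data known. The ratios were checked on simulated data. Promoter stretches are RefSeq, GRCm38.p6, and gene positions are from GENCODE on mm9. Alternatives were another pseudocount, filter, scaling, fold or average.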

Additional observations from a re-analysis of the deposited data

Results flagged for a closer look

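Each result here stood out because it went one way between days 2 and 6 with vemurafenib and the other way in the control wounds, and since each arm and day is 1 library none of these differences was tested. Macrophage and monocyte markers had a median log2 ratio of 0.95 with vemurafenib and -1.03 in control. The 3 lymphatic endothelial genes past the filter, the receptor Flt4, the hyaluronan receptor Lyve1 and the membrane protein Pdpn, had medians of 0.77 and -0.51; Lyve1 itself was positive in both arms (0.99 and 0.46), and Pdpn, which keratinocytes and fibroblasts express too, was at 0.53 and -1.19. Wound-edge keratinocyte genes had medians of -0.74 and 0.66. Over all genes, 35 were at least 2-fold higher with vemurafenib and at least 2-fold lower in control, among them Saa3, Ccl6 and F7, and 23 were the reverse, among them Retnla, Sostdc1 and Lce3a.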

How the results depend on the processing

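Of 493 recomputed list medians 481 stayed within the spread used for comparison, 11 moved and 1 turned its sign. Of 3002 recomputed ratios of named genes 2951 stayed, 51 moved and none turned. A turn was counted only for medians at least as large as that spread and for genes past 2-fold. The medians near 0 that changed sign, given below, are therefore among those that stayed. A filter leaves the ratio of a gene as it was. The scalings shift all ratios by nearly the same amount, less than that spread (median of all genes 0.238 at most). Only the pseudocount could therefore move a named gene, and no scaling could move a list median. These counts thus do not measure how stable the values are. With a mean of at least 5 FPKM there were 752 higher and 588 lower genes and 821 that went the same way past 2-fold in both courses (1261 with the mean of at least 1 FPKM), and the median of Schwann cell and nerve genes was -0.05 in place of 1.06; fewer genes enter under that filter. With no filter 1899 genes were higher, and at a fold of 4 the counts were 540 and 205. The median of hair genes was 2.96 with 1 FPKM added and 7.80 with 0.01, that of melanocyte genes 1.42 and 3.89, and with a mean of at least 5 FPKM the medians were 4.13 for melanocyte genes, -1.73 for cytokines, 1.23 for contractile genes and 0.28 for muscle regeneration genes. Without a filter the median of neutrophil and platelet chemokines was -0.83, and a mean in place of the median gave 0.54 for alternatively activated macrophage genes and 2.19 for mast cell markers, where Hdc, at a low ratio, weighs more. Krt25 had 8.47 and 12.98 with 1 and 0.01 FPKM added, and Marco 2.70 and 6.19. Scaling to the same total without the 100 most abundant genes moved the median of all genes to 0.144 and the split to 1490 higher against 711 lower, and to the same upper quartile to 0.068 and 1354 against 809. Medians of T and NK cell, mitotic, ribosomal, coagulation and housekeeping genes, all near 0, changed sign when scaled to the same total (0.22, 0.15, 0.04, 0.14 and 0.14). Other causes of these moves were not tested. No paired analysis was possible because each arm and day has 1 library.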
